A study of Mus musculus with 2 samples.

Results

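Binding of Ptf1a was examined at 3 stretches of mouse chromosome 5, in genome build mm9, placed around the pancreatic progenitor genes Mnx1, Pdx1 and Nkx6-1. The stretches were set by the positions of the genes and not by reads at their sites, although the genes were picked with earlier results of these data known. They lie at chr5:29700000-29900000 for Mnx1, chr5:147980000-148180000 for Pdx1 and chr5:101980000-102200000 for Nkx6-1. They held 34 of the 30691 Ptf1a peaks that the authors listed, 15 in the Mnx1 window, 15 in the Pdx1 window and 4 in the Nkx6-1 window. The measurement was chromatin immunoprecipitation with sequencing (ChIP-seq) in 266.6 cells, a mouse line from a pancreatic acinar tumour, labelled as C57BL/6 X SJL and used at passage 26. Cells were fixed for 10 min in 1% formaldehyde. The Ptf1a library pooled 2 immunoprecipitations and held 28502488 placed reads, and the library of input chromatin, made without antibody, held 27959618. With 1 library per group there was no replicate, so each test compares these 2 libraries, each interval covers counting error only, and amplified reads are not independent molecules. The study used this single line as a stand-in for early pancreas and set its sites beside gene expression in embryonic dorsal buds with and without Ptf1a, and the buds' values were not analysed here.

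Ptf1a is a basic helix-loop-helix factor that pairs with an E protein and with Rbpj or its relative Rbpjl, and this complex reads an E-box beside a TC-box. It is needed for pancreas formation and later for acinar cells. Mnx1 (also Hb9 or Hlxb9), Pdx1 and Nkx6-1 are homeodomain factors. Mnx1 is needed for the dorsal bud to form and later in beta cells, Pdx1 for outgrowth of the bud and for beta cells, and Nkx6-1 marks multipotent progenitors and then the trunk and endocrine lineage, where it opposes Ptf1a. The study's article names Mnx1 in its title as a gene through which Ptf1a keeps progenitor identity.

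The start regions of the 3 genes are shown first because they let a reader look for the letters that the Ptf1a complex reads. The sequences are the 250 bases before each gene's start, from RefSeq in build GRCm38.p6, which is not the build of the reads. All 3 genes had an entry. Reads could not be counted over these bases, and their coordinates cannot be set beside mm9 positions. Capitals mark E-boxes (CANNTG).
Mnx1, GRCm38.p6 chr5:29478471-29478720, minus strand: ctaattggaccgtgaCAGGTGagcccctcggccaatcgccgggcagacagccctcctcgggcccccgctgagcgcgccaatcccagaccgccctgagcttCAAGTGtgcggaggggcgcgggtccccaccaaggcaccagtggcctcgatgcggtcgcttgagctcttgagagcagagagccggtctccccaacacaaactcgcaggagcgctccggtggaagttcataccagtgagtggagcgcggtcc
Pdx1, GRCm38.p6 chr5:147269847-147270096, plus strand: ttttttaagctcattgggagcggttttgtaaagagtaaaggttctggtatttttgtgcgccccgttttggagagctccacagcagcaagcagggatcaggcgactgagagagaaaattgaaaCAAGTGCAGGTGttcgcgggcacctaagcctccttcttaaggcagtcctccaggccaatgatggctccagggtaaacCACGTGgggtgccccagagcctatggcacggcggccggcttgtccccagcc
Nkx6-1, GRCm38.p6 chr5:101664712-101664961, minus strand: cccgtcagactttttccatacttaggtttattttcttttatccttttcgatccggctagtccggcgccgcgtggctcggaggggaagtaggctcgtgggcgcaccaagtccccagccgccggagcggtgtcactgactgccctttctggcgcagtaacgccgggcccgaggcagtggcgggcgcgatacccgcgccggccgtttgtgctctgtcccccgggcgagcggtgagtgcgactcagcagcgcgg

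With the 50 bases after the start included, Mnx1 and Pdx1 had 3 E-boxes each and Nkx6-1 had 0, and 72.3% of 32851 RefSeq start regions of the same 300 bases held at least 1. The form CAGCTG occurred in Mnx1 only, starting at base 45 of the transcribed part, and in 16.3% of all start regions. CATCTG (17.2% of start regions), the TC-box letters TTCCCA (25.6%) and the longer TTTCCCA (8.06%) were in none of the 3 genes. Both strands were searched, CAGCTG and CATCTG are forms of CANNTG, and TTTCCCA contains TTCCCA. These counts describe the letters in 300 bases and say nothing of binding there.

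In gene order, Mnx1 lies between Nom1 and Ube3c, Pdx1 between Gsx1 and Cdx2, and Nkx6-1 between Gpat3 and Gm42134 (RefSeq, GRCm38.p6). A window can therefore hold sites nearer to another gene. An mm9 annotation was not used here, so the distance of a site to a gene's start, exons or introns is not given, and places within a window are given as the distance from its centre.

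Across the 3 windows, the excess of ChIP over input reads lay in short stretches around listed positions. Reads were counted at the point 73 bp downstream of their 5′ end, and ratios of ChIP to input are relative to 0.925, the ratio of reads over 100 bp from any listed position. The Mnx1 window held 6017 ChIP and 4289 input reads, a ratio of 1.52 (exact 95% interval 1.46 to 1.58). The Pdx1 window held 5478 and 4710 (1.26, 1.21 to 1.31), and the Nkx6-1 window, of 220 kb instead of 200, held 3548 and 3122 (1.23, 1.17 to 1.29). All 3 exceeded the median of 1.03 over windows of the same length tiled along chromosomes 1 to 19 and X. Of 12657 such windows of 200 kb, 3.93% had a ratio at least as high as that of Mnx1 and 12.8% at least as high as that of Pdx1. Of 11518 windows of 220 kb, 14.9% reached that of Nkx6-1.

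Bases within 1 kb of a listed position carried that excess. At Mnx1 they held 2758 ChIP and 678 input reads, which was 45.8% of the window's ChIP reads and 15.8% of its input reads (ratio 4.40, 4.04 to 4.79). At Pdx1 they held 1721 and 483 reads, 31.4% and 10.3% of the window's (ratio 3.85, 3.48 to 4.27). At Nkx6-1 they held 892 and 160, 25.1% and 5.12% of the window's (ratio 6.03, 5.09 to 7.18). In each window, then, the greater part of ChIP reads lay farther than 1 kb from listed positions, at the density of the input. In the rest of each window the ratio was 0.976 (0.931 to 1.02) at Mnx1, 0.961 (0.920 to 1.00) at Pdx1 and 0.970 (0.920 to 1.02) at Nkx6-1. The positions were listed from this same ChIP library, so a high ratio near them was built in. Ratios are relative to reads away from listed positions, so a value near 1 elsewhere was built in genome-wide, though not for each window. The split therefore describes where reads lay and does not test binding.

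**Figure D1:**
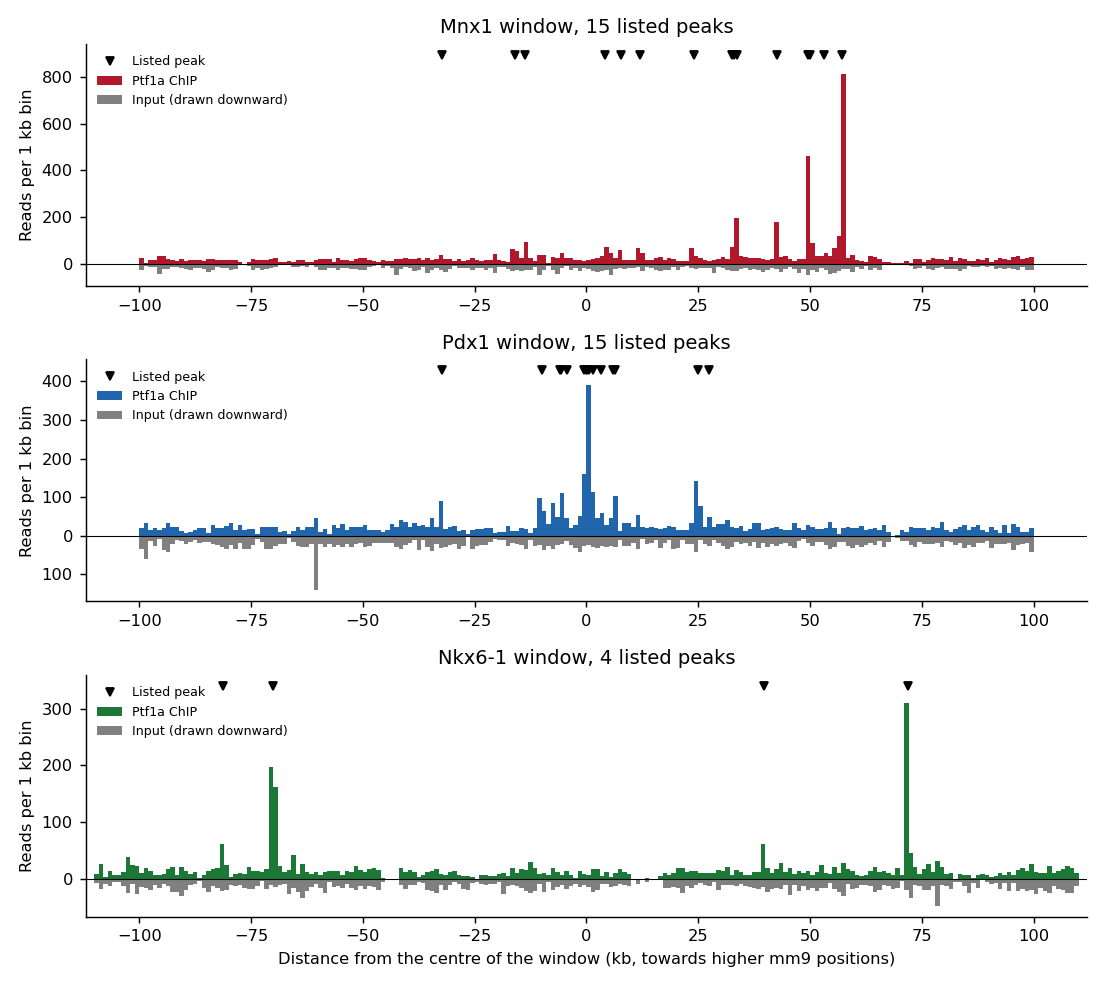
ChIP reads (upward, coloured) and input reads (downward, grey) per 1 kb bin against the distance in kb from each window's centre, with a triangle at each listed peak. Signal at Mnx1 rose to 814 reads in a bin on the side of higher positions, signal at Pdx1 lay around the centre with 389 reads in its highest bin, and the 2 strong stretches of Nkx6-1 lay about 70 kb to each side.

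The number of listed sites was higher at Mnx1 and Pdx1 than at Nkx6-1. A count of 15 sites in 200 kb was reached by 215 of the 12657 tiled windows (1.70%), which had a median of 1 site, and by 34 of the 737 on chromosome 5 (4.61%). A count of 4 in 220 kb was reached by 3004 of 11518 windows (26.1%). Input depth was likewise lower at Nkx6-1. There were 21.4 input reads per kb at Mnx1, 23.6 at Pdx1 and 14.2 at Nkx6-1. Only 3.46% and 2.05% of tiled windows had as many input reads as Mnx1 and Pdx1, against 22.8% for Nkx6-1. On chromosome 5 these shares were 17.9%, 12.8% and 55.3%. The part of input depth in the number of listed sites was not tested.

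At the Mnx1 window, the strongest sites lay on the side of higher positions. Of its 15 sites, 12 lay in 53.0 kb from 29804149 to 29857194, each within 12.5 kb of the next. The highest site, at 29857095, was 57.1 kb above the window's centre, with an authors' peak height of 255. Within 100 bp of it there were 741 ChIP reads and 4 input reads, a ratio of 200.4 (77.9 to 737). Counted once per position and strand, the ChIP reads came to 268, so 63.8% of them were repeats, and the ratio was then 76.2. So narrow a window has fewer positions and strands than 741, so some repeats had to occur. How many were amplified copies was not tested. With 5′ ends not moved the ratio was 561. The second site, at 29849884 (height 192), had 344 ChIP reads. No input read was found there. With the input set to a floor of 3 reads the ratio was 124, and the exact interval had a lower limit of 100.3. These values hold for that window of counting only. With 5′ ends not moved there were 280 ChIP and 6 input reads, a ratio of 49.2. The next were at 29842511 (height 101, 146 ChIP and 7 input reads, ratio 22.6) and 29833670 (height 75, 105 and 10, ratio 11.4).

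By height and by ChIP reads these 4 sites stood above the rest of the Mnx1 window. By ratio they did not, since the site at 29811873 (height 32) had 37 ChIP reads against 1 input read (ratio 40.0, 6.75 to 1623), and those at 29823951 (ratio 21.1) and 29807799 (ratio 12.6) also exceeded the fourth. The fifth by height, at 29786340 (height 45), had 54 ChIP and 12 input reads (ratio 4.87, 2.57 to 10.00) and lay on the other side of the centre. The remaining 10 sites had heights of 20 to 41. The lowest of them, at 29832946 (height 20, 22 ChIP and 14 input reads, ratio 1.70, 0.831 to 3.59), was the only one of the 34 sites that did not pass the test (adjusted p = 0.162, exact binomial test). Against the input density of the surrounding 10 kb it was above input (ratio 5.02, adjusted p = 7.24e-09, exact binomial test), as were then all 15 sites of the window. With that setting 99.7% of the whole list was above input, so passing it sets no site apart.

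At the Pdx1 window, sites crowded around the centre. Of its 15 sites, 12 lay in 16.6 kb from 148069970 to 148086532. The highest, at 148080071 (height 175), was 71 bp from the centre and had 284 ChIP and 4 input reads within 100 bp (ratio 76.8, 29.7 to 284). With 1 read per position and strand the counts were 190 and 4 (ratio 54.0), and over the alternatives tried the ratio ran from 46.8 to 169. The second site, at 148104967 (height 103, 158 ChIP and 5 input reads, ratio 34.2, 14.3 to 107), lay apart from this group, 25.0 kb above the centre. The next 3 by height were all in the group, at 148080590 (height 56, 72 and 9 reads, ratio 8.65), 148081549 (height 51, 68 and 5, ratio 14.7) and 148086433 (height 50, 57 and 13, ratio 4.74).

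Below the highest site, the Pdx1 group was made of many sites of moderate height. The other 10 sites of the window had heights of 20 to 47. In this window 9 of 15 sites had a listed neighbour within 1 kb, against 5 of 15 at Mnx1, 0 of 4 at Nkx6-1 and 21.7% of all listed sites. The closest pair, at 148074025 and 148074228, was 203 bp apart, with 50 ChIP and 5 input reads at the first and 44 and 7 at the second. Windows of 100 bp to each side do not overlap at that distance, but reads of fragments between close sites can fall in either.

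At the Nkx6-1 window, sites were few, and the strong ones were far from the centre. The highest, at 102020024 (height 110), lay 70.0 kb below the centre and had 155 ChIP and 2 input reads (ratio 83.8, 22.8 to 698). The second, at 102161840 (height 103), lay 71.8 kb above it and had 234 ChIP and 4 input reads (ratio 63.3, 24.4 to 234). Between them was only the site at 102129762 (height 34, 39 and 3 reads, ratio 14.1, 4.47 to 71.1), and the remaining one was at 102008683 (height 22, 26 and 11 reads, ratio 2.56, 1.22 to 5.73). Over the alternatives tried, the ratio ran from 35.0 to 85.3 at the highest site and from 22.1 to 76.6 at the second. In the central 100 kb of the window the ratio was 0.989 (0.912 to 1.07), against 1.48 (1.41 to 1.56) in that of Mnx1 and 1.67 (1.59 to 1.76) in that of Pdx1.

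By the test, 33 of the 34 sites were above input, 0 were below it and 1 was not called (exact two-sided binomial test, Benjamini-Hochberg adjusted over all 30691 sites, threshold 0.05). Over the whole list 98% of sites were above and 0.28% below, so this count is near the background, and the list was made from the same ChIP library. The largest adjusted p was 0.000213 at the 15 Pdx1 sites and 0.0108 at the 4 Nkx6-1 sites (exact binomial test). When only the deposited span of 100 bp was counted, 12 Mnx1 sites, 15 Pdx1 sites and 4 Nkx6-1 sites had more ChIP reads, beside 91.6% of the list. The Mnx1 sites at 29767737 and 29804149 were then not called (adjusted p = 0.243 and 0.469, exact binomial test).

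**Figure D2:**
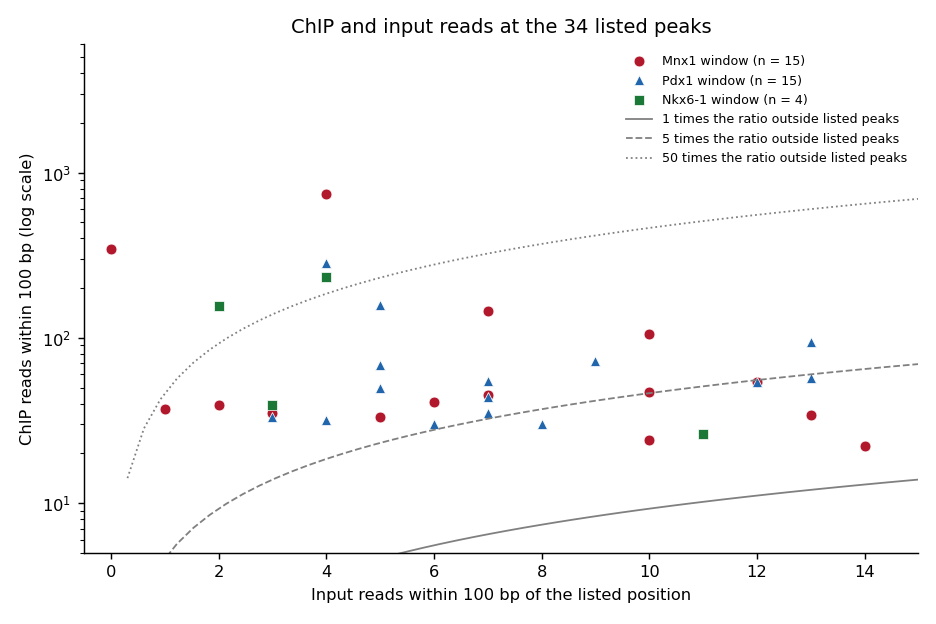
ChIP reads (log scale) against input reads within 100 bp of each of the 34 listed positions, by window, with lines at 1, 5 and 50 times the ratio outside listed peaks. The 5 sites above the 50-fold line, or with 0 input reads, are the 2 highest of Mnx1, the highest of Pdx1 and the 2 highest of Nkx6-1.

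In rank, the sites ran from near the top of the list to its floor. By height, the highest Mnx1 site ranked 338 of 30691, the second 1041, the highest Pdx1 site 1351 and the highest Nkx6-1 site 3462. By ChIP reads within 100 bp these ranked 223, 1306, 1793 and 4279, and by the ratio of ChIP to input 281, 819, 1962 and 1737, where the 819 rests on the floor of 3 input reads. The second Nkx6-1 site ranked 3842 by height and 2411 by ChIP reads, above the first. At the other end, sites of height 20 at Mnx1 and Pdx1 shared rank 28944. Heights of 100 or more were found at 3 Mnx1, 2 Pdx1 and 2 Nkx6-1 sites, which was 20.6% of the 34 sites beside 13.3% of the list. The median height was 37 at the 34 sites and 36 over the list. The median ratio was 8.58 beside 12.5 (sites without input reads set to the floor of 3), and the median input count within 100 bp was 6.5 beside 5.

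**Figure D3:**
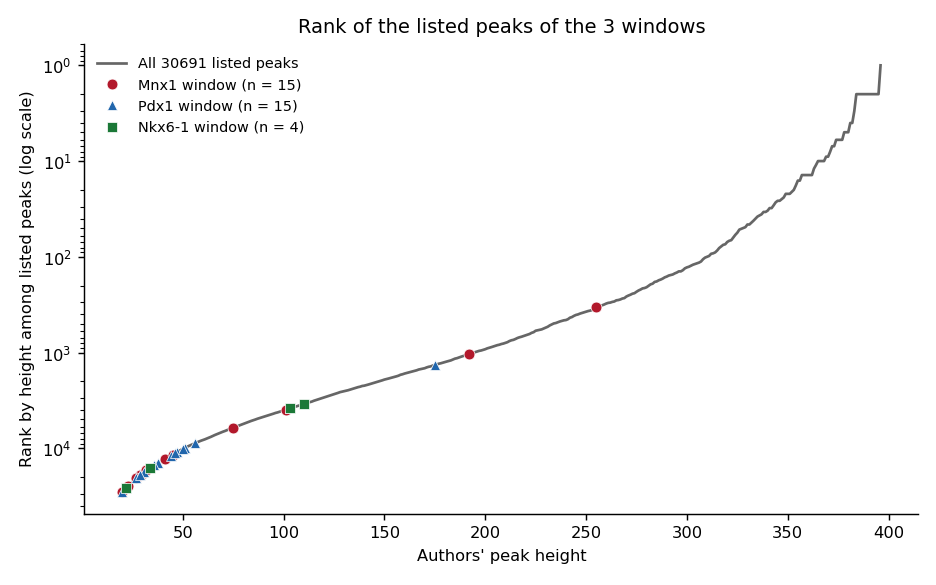
Rank among all 30691 listed peaks (log scale, 1 at the top) against the authors' peak height, with the 34 sites of the windows on the curve of the whole list. Mnx1 holds the 2 sites nearest the top, at ranks 338 and 1041, followed by a Pdx1 site at 1351.

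The excess at listed sites was compared between the windows with reads counted once per position and strand, summed over all sites of a window (two-sided Fisher's exact test, adjusted over 3 pairs). The sums were 1047 ChIP and 102 input reads over 15 sites (3015 bp) at Mnx1, 881 and 104 over 15 sites (3015 bp) at Pdx1, and 341 and 20 over 4 sites (804 bp) at Nkx6-1. A site thus had a mean of 69.8 ChIP and 6.80 input reads at Mnx1, 58.7 and 6.93 at Pdx1, and 85.3 and 5.00 at Nkx6-1. All were listed from this ChIP library, so the tests describe reads at listed sites and cannot decide whether binding differs between the windows. Input depth over the whole window was also lower at Nkx6-1, 14.2 reads per kb against 23.6 at Pdx1, and its part in the ratio was not tested. The ratio at Nkx6-1 was 2.01 times that at Pdx1 (95% interval 1.21 to 3.49, adjusted p = 0.0120, Fisher's exact test). This did not hold without the highest site of each window (1.81 times, adjusted p = 0.0836, Fisher's exact test). Without the 2 highest sites of each window, an alternative added after the data were seen, the direction turned (0.741 times, adjusted p = 0.598, Fisher's exact test). With all sites kept, the call was also lost in the deposited span of 100 bp (2.07 times, adjusted p = 0.0729, Fisher's exact test). The part of the smaller number of reads in the lost call was not tested. Removal of the 2 highest sites was unequal, since it left 2 sites and 62 of 341 ChIP reads at Nkx6-1. At Mnx1 it left 13 sites and 567 of 1047 reads, and at Pdx1 13 sites and 574 of 881. With repeats counted, unlike in this test, the 2 sites with most reads gave 85.7% of ChIP reads at Nkx6-1 sites, 62.1% at Mnx1 and 40.3% at Pdx1. Nkx6-1 over Mnx1 was 1.66 (1.00 to 2.88, adjusted p = 0.0689, Fisher's exact test) and Mnx1 over Pdx1 was 1.21 (0.899 to 1.63, adjusted p = 0.211, Fisher's exact test), neither past the threshold. With all reads counted, Mnx1 over Pdx1 was 1.66 (1.24 to 2.21, adjusted p = 0.00105, Fisher's exact test). The site of most ChIP reads alone gave 42.4% of those at Mnx1 sites, 25.9% at Pdx1 and 51.5% at Nkx6-1. Repeated reads were 40.1% of ChIP reads at Mnx1 sites, 19.6% at Pdx1 sites and 24.9% at Nkx6-1 sites. Sites of 1 window share both libraries and are not replicates.

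Bins of 1 kb, which are placed without regard to the list, were tested as well, with the same expected ratio. More ChIP than input reads were found in 15 of 195 bins tested at Mnx1 (7.69%), 14 of 197 at Pdx1 (7.11%) and 6 of 204 at Nkx6-1 (2.94%), beside 1.86% of 2004567 bins of the genome and 2.07% of those on chromosome 5 (exact binomial test over bins with at least 10 reads). Fewer ChIP than input reads were found in 1 bin, at Pdx1, beside 0.164% of bins of the genome. Of these bins, 11 of 15, 10 of 14 and 4 of 6 held a listed position. Over 1 kb from any listed position, 1 of 158 bins tested at Mnx1 had more ChIP reads. At Pdx1 these were 2 of 171 bins, and at Nkx6-1 1 of 192. In the genome 0.478% of bins so placed had more ChIP reads, so these counts are near that background. The Nkx6-1 count depended on where bins were placed. Its adjoining bins from 102019001 and from 102020001 (198 and 162 ChIP reads) both lay at the listed site at 102020024. With bins shifted by 500 bp, the bins with more ChIP reads numbered 13 at Mnx1, 14 at Pdx1 and 4 at Nkx6-1. The share of the genome with bins so shifted is not given here.

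The 4 bins away from listed positions held fewer ChIP reads than the bins of the strongest sites. At Mnx1 the bin was 29794001 to 29795000, with 48 ChIP and 19 input reads (ratio 2.73, 1.58 to 4.92). At Pdx1 the bins were 148072001 to 148073000, with 86 and 34 (2.74, 1.82 to 4.20), and 148041001 to 148042000, with 33 and 11 (3.24, 1.60 to 7.12). The first held up to 38 distinct ChIP reads in 200 bp, with 11 distinct input reads there. Such a count is another measure than the authors' peak height, so it does not say whether the bin should have been listed. At Nkx6-1 the bin was 102024001 to 102025000, with 42 and 16 (2.84, 1.56 to 5.41). Summits of distinct ChIP reads in 200 bp were also taken in order of their reads, leaving out places within 200 bp of one already taken. Those with 50 or more reads numbered 5 at Mnx1, 8 at Pdx1 and 3 at Nkx6-1, and each lay within 250 bp of a listed position. Places left out beside a summit were not checked.

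At the leading sites, the median plus-strand read began before the listed position and the median minus-strand read after it. At the highest Mnx1 site the median 5′ end lay 83 bp before the position on the plus strand and 72.5 bp after it on the minus strand, and at the highest Pdx1 site these were 61 and 70 bp. The highest Nkx6-1 site had 51.5 and 43 bp, and the second 83 and 52 bp. At the highest Nkx6-1 site signal also went on below the listed position. There were 148 ChIP and 2 input reads from 101 to 600 bp before it, about as many ChIP reads as the 155 within 100 bp, and 45 and 10 on the other side. At the highest Mnx1 site those flanks held 80 and 67 ChIP reads beside 741. Within 100 bp of position 102019800 there were 77 ChIP reads and 1 input read, and within 100 bp of 102019590 there were 49 and 1. Neither position was in the list, and both were chosen after their values were seen, as were the close Pdx1 pair and the Mnx1 site that did not pass.

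**Figure D4:**
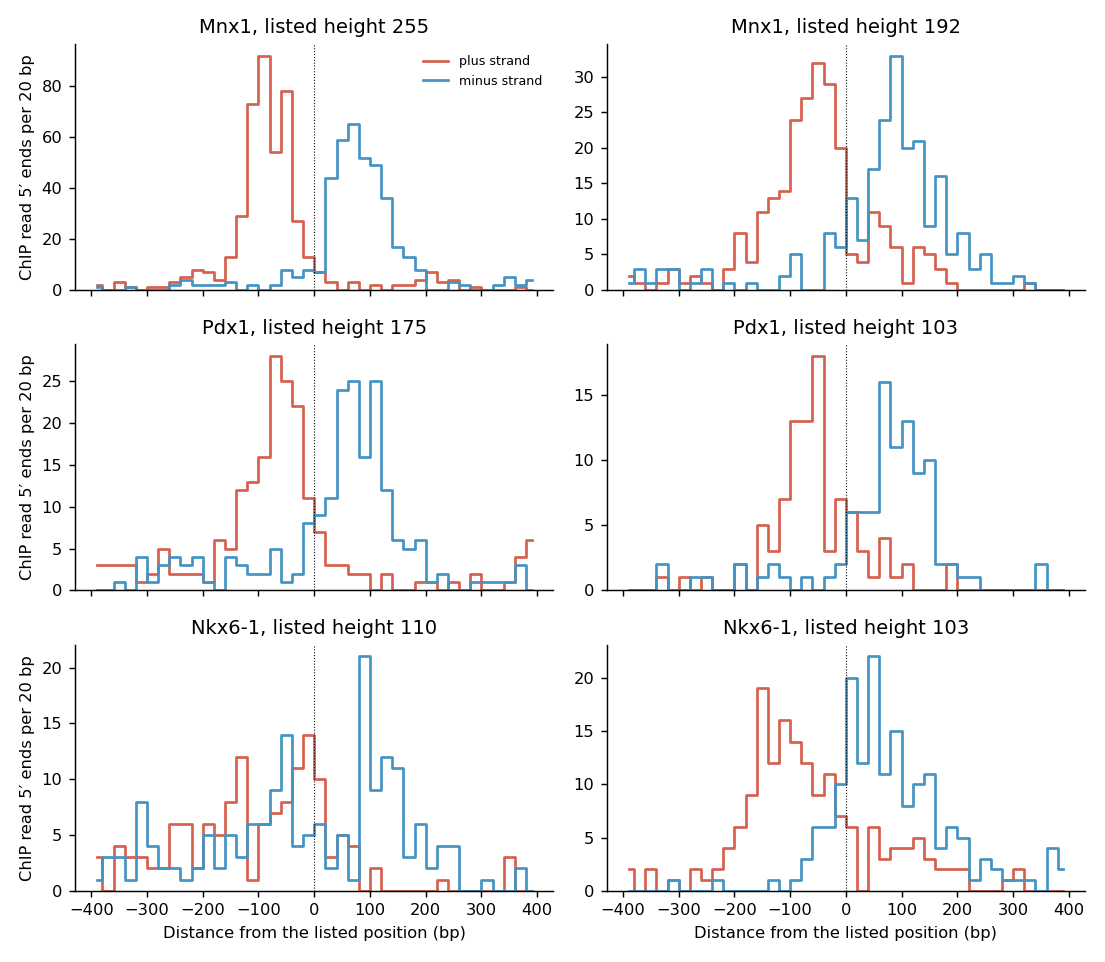
5′ ends of ChIP reads per 20 bp on the plus and minus strands, against the distance in bp from the listed position, for the 2 highest sites of each window. Plus-strand ends lie before and minus-strand ends after the position at the Mnx1 and Pdx1 sites and at the second Nkx6-1 site, while at the Nkx6-1 site of height 110 both strands also show ends to 400 bp before it.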

How the data were processed

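The authors deposited both libraries as counts of single placed reads of 37 bp, with the value 1 on each line and no normalization. The build was mm9, as the submitters' processing notes state. The aligner, the peak caller and their settings are not given in the sources used. The authors deposited peak heights as a signal track with spans of 100 bp. The genes, lists and tests were chosen with earlier results of these data known.

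Each 5′ end was moved 73 bp downstream. Reads were counted within 100 bp of each listed position and in 1 kb bins. ChIP was tested against input with an exact conditional binomial test (smaller tail doubled), adjusted over all sites or all bins tested. Ratios have exact 95% intervals. Tiled windows needed at least 100 input reads. In each window the 5 highest sites were named, with the bins that passed over 1 kb from listed positions. The tests were checked on simulated data (Python 3.11.15, scipy 1.17.1, numpy 2.4.6). Simulated data held independent reads only, so repeated reads and the listing of sites from the ChIP library were not covered. Other progenitor genes were not analysed here, since their mm9 positions were not used.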

Additional observations from a re-analysis of the deposited data

How the results depend on the processing

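No paired analysis was possible because each group had 1 library. With listed peaks of height 50 or more only, the sites with more ChIP than input reads numbered 4 at Mnx1, 5 at Pdx1 and 2 at Nkx6-1, since fewer sites were tested. With 1 read per position and strand the window ratio at Mnx1 was 1.36. Without 1 kb to each side of listed positions the window ratios were 0.976 at Mnx1, 0.961 at Pdx1 and 0.970 at Nkx6-1, which leaves out the sites themselves. In the central 100 kb they were 1.67 at Pdx1 and 0.989 at Nkx6-1. Of the comparisons between windows, Mnx1 over Pdx1 was 1.66 with all reads and 2.38 with heights of 50 or more (adjusted p = 0.00105 and 0.00374, Fisher's exact test). Nkx6-1 over Pdx1 was 2.07 in the deposited span of 100 bp and 1.81 without the highest sites (adjusted p = 0.0729 and 0.0836, Fisher's exact test). A pair of alternatives were added after the data were seen. Without the site of most ChIP reads in each window, Nkx6-1 over Pdx1 was 1.61 (adjusted p = 0.317, Fisher's exact test). Without the 2 highest sites of each window, Mnx1 over Pdx1 was 0.968, Nkx6-1 over Mnx1 0.765 and Nkx6-1 over Pdx1 0.741 (adjusted p = 0.877, 0.598 and 0.598, Fisher's exact test). In the other 49 values the direction and call were as reported, counts stayed within 1.5 times, and window ratios stayed within the intervals of the report. The 14 named sites kept their direction and call in each of their 81 alternative values, but at 13 of them the ratio moved by over 1.5 times, as from 200.4 to between 76.2 and 561 at 29857095 and from 4.87 to between 3.69 and 11.5 at 29786340. With 5′ ends not moved, the Mnx1 site at 29767737 was not called (adjusted p = 0.355, exact binomial test). The cause was not tested.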

Other observations

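The bin from 148019001 to 148020000 in the Pdx1 window had fewer ChIP than input reads, 46 against 141 (ratio 0.353, 0.247 to 0.495, adjusted p = 9.93e-09, exact binomial test), the only such bin of the 3 windows, beside 0.164% of bins in the genome. It held the most input reads of any bin in that window, where the median was 23. A local rise in input also lay beside the second Nkx6-1 site, with 39 input reads from 101 to 600 bp after the listed position against 7 on the other side and 4 within 100 bp.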
